A study of Saccharomyces cerevisiae with 11 samples.

Results

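PBN1, PDI1, NFS1, PGS1, PGK1, RRP43, CTR86 and CDC39 are genes of budding yeast (Saccharomyces cerevisiae) that lie on chromosome III and are listed as essential, and whose products act outside ribosome assembly. They were picked by gene number in the R64 reference, and all 8 have a row in each of 2 tables, of 5936 and 5931 rows. Values are FPKM (sequenced fragments, divided by gene length and by the total of the library), so levels of genes can be set against each other. Polyadenylated RNA of 11 libraries was measured: 3 each of the genotypes GD, SD and RD, 1 wild-type library called control in the table of GD and SD, and 1 wild-type library called ControlSYN3 in the table of RD. The labels do not spell out these abbreviations, and they give no growth condition and no copy number or position of the genes in the strains. The table heads the RD columns MD; matching them to RD1, RD5 and RD6 by number is an inference. Below, the values of a strain group follow the order of its library numbers (1, 2, 3 for GD and SD; 1, 5, 6 for RD), and SD beside an n is the standard deviation, not the genotype. The series title is about essential genes placed in clusters, and its design text says that synthetic and wild-type genes were told apart by sequence tags. The sources used here do not say which copies a row counts, so a level below is that of the row.

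The 8 genes serve unrelated processes. PBN1 and PDI1 act in the endoplasmic reticulum, where PBN1 helps to add a mannose to the lipid anchors of cell surface proteins and PDI1 forms and rearranges disulfide bonds. NFS1 and PGS1 act in mitochondria, where NFS1 takes sulfur from cysteine for iron-sulfur clusters and PGS1 makes the precursor of phosphatidylglycerol and cardiolipin. PGK1 is the phosphoglycerate kinase of glycolysis and is known as a very abundant transcript. RRP43 is a subunit of the exosome, which degrades and trims RNA from the 3′ end, and CDC39, also called NOT1, is the scaffold of the Ccr4-Not complex, which shortens poly(A) tails. CTR86 is less well described.

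In the R64 reference each of the 8 genes has a single coding exon, and no annotated gene overlaps it. PBN1 spans 34143 to 35393 on the minus strand, PDI1 48653 to 50221 (minus), NFS1 92777 to 94270 (minus), PGS1 109105 to 110670 (plus), PGK1 137746 to 138996 (plus), RRP43 191834 to 193018 (minus), CTR86 218376 to 220067 (minus) and CDC39 280117 to 286443 (plus). Their lengths run from 1185 bp for RRP43 to 6327 bp for CDC39, and their GC content from 36.05% for CTR86 to 47.29% for PDI1. PBN1 ends 168 bp from the end of SPB1, and CTR86 lies 389 bp from PWP2. SPB1 and PWP2 are ribosome assembly genes of the same chromosome.

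Because the levels of the 8 genes moved together, their promoters were searched for shared short motifs, in a window from 250 bases before the start codon to 50 bases from its first base. The motifs, searched on both strands, were the PAC core GATGAG, the RRPE core AAATTTT, the TATA box TATAAA and the UPRE core CAGCGTG. No motif was found in all 8 windows. The PAC core was in 2 of 8 (RRP43 and CTR86) against 20.3% of 6020 promoters, the RRPE core in 2 (CTR86 and CDC39) against 23.1%, the TATA box in 4 (NFS1, PGK1, RRP43 and CTR86) against 45.4%, and the UPRE core in none against 1.16%. The RRPE core and its complement overlap by 6 bases in CDC39. The windows of PGK1, RRP43, CTR86 and CDC39 are printed here, as they hold all but 1 of the matches, at chrIII:137496-137795 (plus), chrIII:192969-193268 (minus), chrIII:220018-220317 (minus) and chrIII:279867-280166 (plus) of R64 as RefSeq gives it. Matches are in capitals, and the strains may carry other sequence here.
PGK1: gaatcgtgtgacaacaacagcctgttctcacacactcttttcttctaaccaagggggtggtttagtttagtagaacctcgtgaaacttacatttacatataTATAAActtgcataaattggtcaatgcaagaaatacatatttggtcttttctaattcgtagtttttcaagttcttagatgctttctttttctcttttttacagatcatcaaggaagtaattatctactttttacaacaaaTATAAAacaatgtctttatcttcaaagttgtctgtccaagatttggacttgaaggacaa
RRP43: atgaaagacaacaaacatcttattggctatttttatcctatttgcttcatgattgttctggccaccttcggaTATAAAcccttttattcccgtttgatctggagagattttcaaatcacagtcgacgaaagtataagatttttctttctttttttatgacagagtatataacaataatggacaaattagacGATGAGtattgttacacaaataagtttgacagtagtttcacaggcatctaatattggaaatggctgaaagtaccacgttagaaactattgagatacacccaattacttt
CTR86: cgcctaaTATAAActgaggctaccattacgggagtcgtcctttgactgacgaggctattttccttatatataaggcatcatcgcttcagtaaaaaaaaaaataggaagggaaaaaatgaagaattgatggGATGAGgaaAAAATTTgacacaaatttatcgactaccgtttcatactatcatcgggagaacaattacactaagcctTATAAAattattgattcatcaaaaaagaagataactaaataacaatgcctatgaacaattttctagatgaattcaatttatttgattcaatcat
CDC39: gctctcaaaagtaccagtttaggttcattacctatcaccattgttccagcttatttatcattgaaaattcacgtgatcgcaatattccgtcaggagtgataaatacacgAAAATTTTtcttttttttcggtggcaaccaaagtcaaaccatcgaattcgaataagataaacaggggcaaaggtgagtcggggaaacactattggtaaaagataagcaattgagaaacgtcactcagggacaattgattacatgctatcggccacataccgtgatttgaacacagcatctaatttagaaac
In PGK1 the TATA box letters begin at positions -149 and -9 from the start codon. In RRP43 they begin at -178 and the PAC core at -59. CTR86 holds the PAC core at -120 and the RRPE core, on the opposite strand, at -111. A match is a description of these letters and not a site of binding.

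All 8 genes stood higher in SD than in GD, with no overlap between the libraries, and all 8 stood higher in SD than in the control. By limma on log2(FPKM + 1), with adjusted p under 0.05 over all genes of the table, 8 of 8 were called lower in GD than in SD, where 20.4% of all genes tested were. Against the control, 8 of 8 were called higher in SD, where 10.4% of all genes were, and none lower, where 31.4% were. In GD against the control none was called higher, where 4.98% of all genes were, and PGS1 alone was called lower, where 27.1% were. Every GD library lay below the control for 3 of 8 (PBN1, PGS1 and CTR86), against 59.6% of all genes. Every SD library lay above every GD library for 28.5% of all genes, and every SD library above the control for 28.4%. The median log2 fold change of the 8 genes was 2.19 in SD against the control, -2.46 in GD against SD and -0.26 in GD against the control, and that of all genes was -0.37, -0.04 and -0.44. Less the median of all genes, these become 2.56, -2.42 and 0.18. In RD against ControlSYN3 the median was 2.23 over the 7 genes with a fold, and -0.10 over all genes. All tests rest on 3 libraries per strain group and a lone control, which was assumed to vary like the strains. The labels do not say that libraries of a group came from separate cultures, so p-values measure only the spread between these libraries. In GD and SD that spread may be technical. In RD it includes the difference of RD1 in mating-type genes given below. In RNA from whole cultures, fewer cells of one state and less RNA per cell cannot be told apart.

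**Figure D1:**
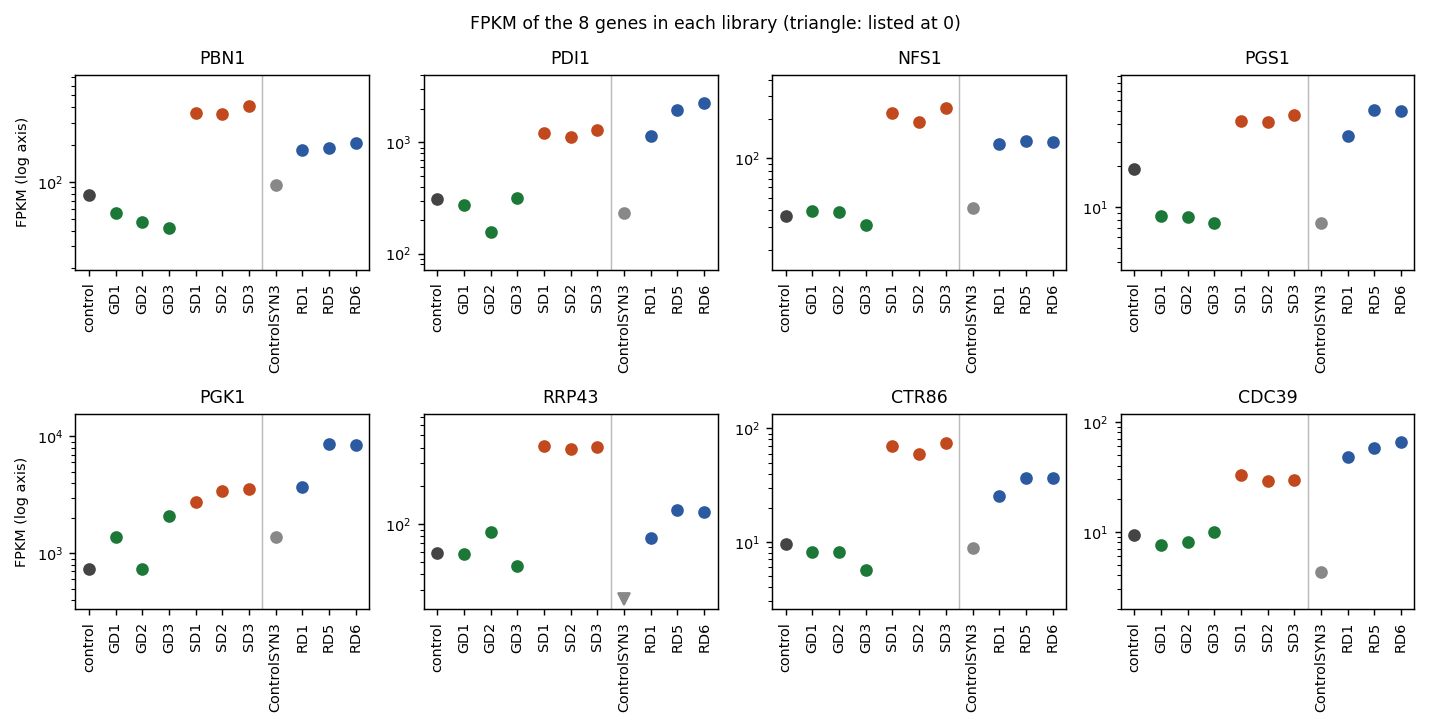
FPKM (log axis) of each gene in the 11 libraries, 1 point per library, with the 2 tables parted by a grey line. In each panel the 3 SD points lie above the 3 GD points and the control, and the 3 RD points lie above ControlSYN3, where RRP43 is listed at 0.

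In the second table, all 3 RD libraries stood above ControlSYN3 for all 8 genes, which held for 29.0% of all genes. No gene of this table, member or not, passed limma's adjusted p, so 0% were called in either direction. At an unadjusted p under 0.05 from limma, 8 of 8 were higher in RD, where 5.16% of all genes were, and 671 of 5895 genes passed in either direction. One of the 8 is RRP43, whose wild-type row is at 0, so that its test depends on the pseudocount. Without trend and robust estimates 1 gene of the table was called, which was lower. The fit had 2 residual degrees of freedom, and 1 library, RD1, differed from the others. Across genes (not independent replicates) its Spearman correlation with RD5 was 0.906, and that of RD5 with RD6 was 0.993. Genes of a-type cells (6 of 6 with a row) summed to 4916 FPKM in RD1 and to 41.8 to 72.5 FPKM in RD5, RD6 and ControlSYN3, and genes of alpha-type cells (4 of 4) to 114 FPKM in RD1 and to 8320 to 9071 FPKM in those 3. The part of this difference in the results was not tested. Without RD1, 8 of 8 were called higher, where 22.9% of all genes were, but this rests on RD5 and RD6 alone and 1 residual degree of freedom, with limma adjusted p from 0.000199 (CDC39) to 0.00149 (PBN1) over the 7 genes with a fold. With all 3 RD libraries the log2 fold change was 3.44 ± 0.24 for CDC39, 2.87 ± 0.53 for PDI1, 2.39 ± 0.33 for PGS1, 2.23 ± 0.71 for PGK1, 1.76 ± 0.29 for CTR86 and 1.66 ± 0.15 for NFS1 (SE; limma adjusted p from 0.317 to 0.410). PBN1 had the smallest.

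**Figure D2:**
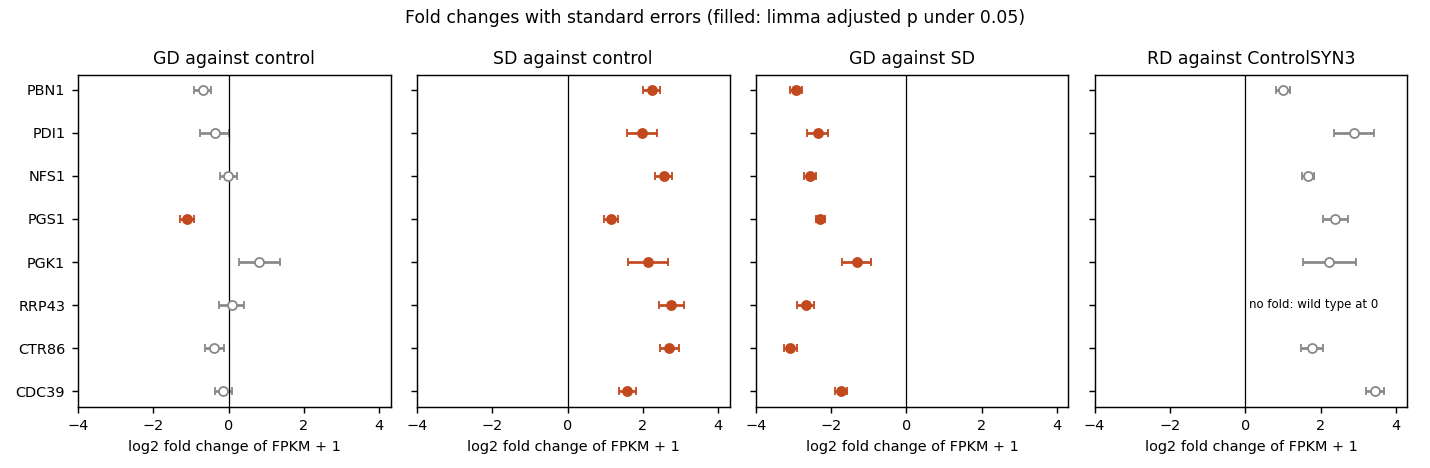
Log2 fold change of FPKM + 1 with its standard error for each gene in 4 comparisons, filled where limma's adjusted p was under 0.05. In SD against control and in GD against SD all 8 points are filled, in GD against control only PGS1 is, and in RD against ControlSYN3 none is, though all 7 points drawn lie above 0.

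For PBN1 the control gave 78.2 FPKM, the GD libraries 55.8, 47.2 and 42.6 FPKM, and the SD libraries 358, 351 and 410 FPKM. ControlSYN3 gave 94.8 FPKM, and the RD libraries gave 180, 187 and 206 FPKM. All GD libraries lay below the control and all SD libraries above it. Against the control the log2 fold change of SD was 2.24 ± 0.23 (SE; limma adjusted p = 0.000954), GD less SD was -2.92 ± 0.16 (7.15e-05) and GD less control was -0.69 ± 0.23, which was not called (0.0527). Without GD2 the last was called (0.0419). With a mean of 2.02 times its wild type, PBN1 had the smallest RD ratio of the 7 genes that have one. Of 21 other genes of anchor synthesis, 7 were higher and 3 lower in GD than in SD, with a median log2 fold change of 0.22. In this contrast 20.4% of all genes were called higher and 20.4% lower. GPI14, the mannosyltransferase that PBN1 works with, stood at 44.0 to 45.5 FPKM in GD and 43.3 to 48.9 FPKM in SD (limma adjusted p = 0.943). MCD4, which adds ethanolamine phosphate to the anchor, went the opposite way to PBN1, at a GD less SD log2 value of 1.39 ± 0.22 (SE; limma adjusted p = 0.00316). GPI8, the catalytic subunit of the enzyme that attaches the anchor, was likewise higher in GD, by 0.78 ± 0.15 (SE; limma adjusted p = 0.00625). PBN1 was above all 21 of them in every SD and RD library, above 19 in ControlSYN3, above 14 in the control and above 11 to 14 in GD.

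PDI1 was the second most abundant of the 8 in every library. The control gave 307 FPKM, the GD libraries 272, 157 and 314 FPKM, and the SD libraries 1226, 1123 and 1306 FPKM. ControlSYN3 gave 234 FPKM, and the RD libraries gave 1141, 1968 and 2263 FPKM. GD lay around the control, with GD2 lowest, while SD and RD lay above their wild types without overlap. For SD over control the fitted log2 fold change was 1.98 ± 0.39 (SE; limma adjusted p = 0.00687) and GD less SD was -2.35 ± 0.28 (0.000949). Of 12 other genes of folding in the endoplasmic reticulum, 5 were higher and none lower in GD than in SD, the reverse of PDI1. The share of all genes was 20.4% each way. SIL1 and SCJ1, which assist the chaperone KAR2, had log2 fold changes of 0.70 ± 0.12 and 0.68 ± 0.12 (SE; limma adjusted p = 0.00444 and 0.00506). ERO1, which reoxidises PDI1, stood at 86.8 to 169 FPKM in GD and 147 to 196 FPKM in SD and was not called (limma adjusted p = 0.102).

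For NFS1 the control gave 36.3 FPKM, the GD libraries 39.2, 38.7 and 30.7 FPKM, and the SD libraries 222, 189 and 245 FPKM. ControlSYN3 gave 41.7 FPKM, and the RD libraries gave 130, 137 and 133 FPKM. GD lay at the control's level, and the RD libraries, RD1 included, lay closer together than for any of the other genes, with a coefficient of variation of 2.64%. SD exceeded the control on the log2 scale by 2.55 ± 0.23 (SE; limma adjusted p = 0.000911) and GD less SD was -2.56 ± 0.16 (0.000109). The partners in cluster assembly were mixed: of 12, 1 was higher and 2 were lower in GD than in SD (20.4% of all genes each way). SSQ1, a mitochondrial chaperone that serves the cluster scaffold, was lower in GD (at -1.01 ± 0.17 on the log2 scale; SE; limma adjusted p = 0.00378), and ISU2, one of the scaffold genes, was higher (0.85 ± 0.19; 0.011). ISD11, whose product binds NFS1, stood at 625 FPKM in the control, 220 to 262 FPKM in GD and 190 to 234 FPKM in SD with no call of GD against SD (limma adjusted p = 0.44). NFS1 lay below all 12 partners in the control, in ControlSYN3 and in every GD library. It lay above 7 to 9 of them in SD and above 5 in RD.

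For PGS1 the control gave 19.0 FPKM, the GD libraries 8.57, 8.51 and 7.65 FPKM, and the SD libraries 42.6, 42.0 and 47.3 FPKM. ControlSYN3 gave 7.64 FPKM, and the RD libraries gave 33.2, 51.4 and 50.6 FPKM. PGS1 split GD and SD to either side of the control, at log2 fold changes of -1.12 ± 0.18 for GD and 1.16 ± 0.18 for SD (SE; limma adjusted p = 0.00708 and 0.00312). Fitted without the SD libraries, the call for GD was lost (limma adjusted p = 0.0916). Between GD and SD the log2 fold change was -2.28 ± 0.13 (SE; limma adjusted p = 7.44e-05). Of 8 genes around it in the cardiolipin pathway, 1 was higher and 2 were lower in GD than in SD (20.4% of all genes each way). CDS1, which makes the substrate of PGS1 in the endoplasmic reticulum, was higher in GD, by 1.70 ± 0.44 (SE; limma adjusted p = 0.0189), and TAM41, which makes the same substrate in mitochondria, was lower, at -0.88 ± 0.19 (0.0104). GEP4, the phosphatase of the next step, stood at 145 FPKM in the control, 50.7 to 59.5 FPKM in GD and 63.1 to 66.0 FPKM in SD (GD against SD, limma adjusted p = 0.139). PGS1 was below all 8 in the control, in GD and in ControlSYN3, above 1 of them in SD and above 0 to 2 in RD.

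PGK1 was the most abundant of the 8 in every library and the most variable in GD. The control gave 731 FPKM, the GD libraries 1388, 739 and 2090 FPKM, and the SD libraries 2737, 3431 and 3535 FPKM. ControlSYN3 gave 1378 FPKM, and the RD libraries gave 3686, 8679 and 8446 FPKM. GD2 lay at the control's level and GD3 at 2.86 times the control, still below the lowest SD library. Across genes, GD2 correlated less with the other GD libraries (Spearman 0.948 with GD1, 0.918 with GD3) than GD1 with GD3 (0.976). Against the control the log2 fold change of SD was 2.13 ± 0.54 (SE; limma adjusted p = 0.0168), GD less SD was -1.32 ± 0.38 (0.0285) and GD less control was 0.82 ± 0.54 (0.27). These calls were the least stable of the 8 genes. That of SD against the control was lost without SD3 (0.0514), that of GD against SD without GD1 (0.0735), SD1 (0.0601), SD2 (0.0771) or SD3 (0.0997) or when scaled by median of ratios (0.0534), and without GD2 PGK1 was called higher in GD than in the control (0.0288). Between GD and SD, more of the other glycolysis genes were called against the direction of PGK1 than with it. Of 14, 6 were higher in GD than in SD and 1 was lower (20.4% of all genes each way). In the other contrasts the median log2 fold change of the 14 had the sign of PGK1. It was 0.74 in GD and 0.13 in SD against the control, and 0.42 in RD against ControlSYN3. The calls in SD against the control ran mostly against PGK1, with 1 of the 14 higher and 4 lower (10.4% and 31.4% of all genes). GPM1, of the next step, stood at 4397 to 9942 FPKM in GD and 1481 to 2677 FPKM in SD. GPM1 was thus higher in GD by 1.86 ± 0.38 on the log2 scale (SE; limma adjusted p = 0.00818). ENO2, enolase, had a GD less SD log2 difference of 3.22 ± 0.34 (SE; limma adjusted p = 0.000646), and TDH2, of the step before PGK1, one of 2.999 ± 0.39 (0.00146). PGK1 exceeded 4 to 5 of the 14 in GD, 4 in the control and 5 in ControlSYN3, against 11 in SD and 9 to 11 in RD.

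For RRP43 the control gave 58.4 FPKM, the GD libraries 58.0, 86.8 and 46.6 FPKM, and the SD libraries 410, 387 and 404 FPKM. ControlSYN3 lists it at 0, while the RD libraries gave 76.9, 129 and 123 FPKM. An essential exosome gene at 0 in a wild-type library may be a failed estimate, so no fold is given for RD. Of all rows of that table, 2 were at 0 in ControlSYN3 and over 20 FPKM in every RD library. The SD libraries were the closest together of the 8 genes, with a coefficient of variation of 2.91%. For SD over control the fitted log2 fold change was 2.76 ± 0.32 (SE; limma adjusted p = 0.00151) and GD less SD was -2.68 ± 0.23 (0.000327). No other exosome gene shared this call: of 12, 2 were higher and none was lower in GD than in SD (20.4% of all genes each way). RRP42, another subunit of the core ring, stood at 137 FPKM in the control, 101.4 to 145 FPKM in GD and 88.4 to 103 FPKM in SD (GD against SD, limma adjusted p = 0.291). MTR3, of the same ring, and LRP1, a cofactor of the nuclear exosome, were higher in GD, by 0.63 ± 0.16 and 0.49 ± 0.15 (SE; limma adjusted p = 0.0183 and 0.0386). RRP43 was above all 12 in each SD library, at 387 to 410 FPKM against partner medians of 82.6 to 87.1 FPKM, and above 10 to 12 in RD. In the control it was above 2 of them, and in GD above 2 to 5.

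**Figure D3:**
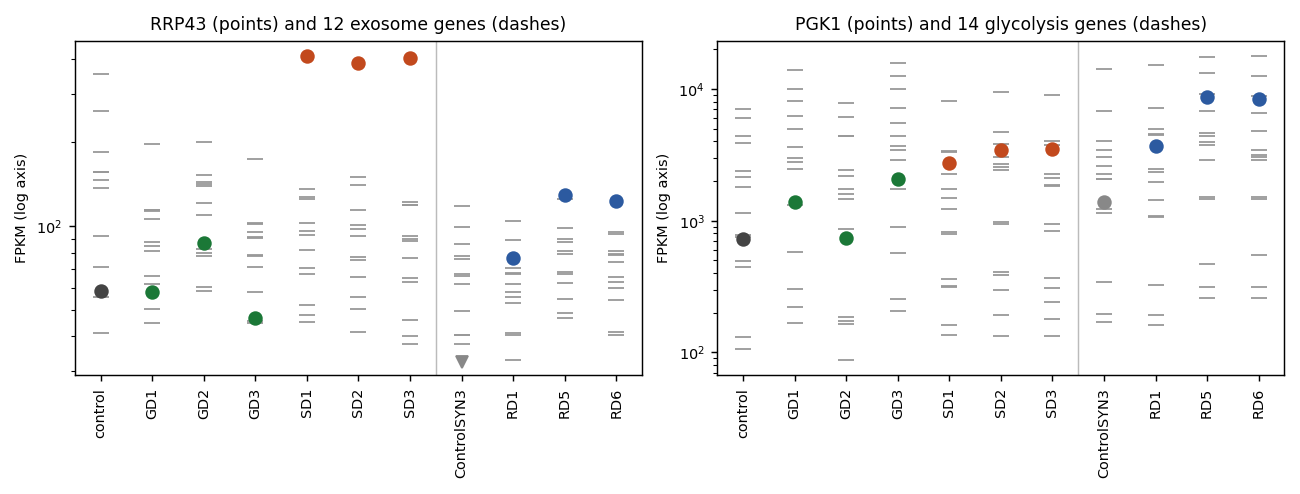
FPKM (log axis) of RRP43 with 12 other exosome genes, left, and of PGK1 with 14 other glycolysis genes, right, in the 11 libraries. Points are RRP43 or PGK1 and dashes the other genes. RRP43 lies above every dash in SD and at 0 (triangle) in ControlSYN3, and PGK1 moves from the lower part of its pathway in the control and GD to the upper part in SD and RD.

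CDC39 was the longest of the 8 and the lowest in the control, in GD1 and GD2 and in SD. The control gave 9.39 FPKM, the GD libraries 7.53, 8.03 and 9.86 FPKM, and the SD libraries 32.5, 28.8 and 29.5 FPKM. ControlSYN3 gave 4.34 FPKM, and the RD libraries gave 47.8, 58.3 and 65.6 FPKM. GD lay at the control's level, and RD reached 11.02 to 15.1 times its wild type, against 3.07 to 3.46 times for SD. These ratios come from separate tables with different wild-type libraries and were not compared. SD exceeded the control on the log2 scale by 1.59 ± 0.22 (SE; limma adjusted p = 0.00211) and GD less SD was -1.73 ± 0.15 (0.000366). None of the 8 other Ccr4-Not genes was called between GD and SD (20.4% of all genes each way). CCR4, the deadenylase, had the lowest p of them and a log2 difference of 0.26 ± 0.13 (SE; limma adjusted p = 0.142). NOT5, another subunit, had one of 0.20 ± 0.15 (0.324), and CDC36, also called NOT2, stood at 130 to 143 FPKM in GD and 100.2 to 146 FPKM in SD (0.61). CDC39 was below all 8 partners in the control, in GD and in ControlSYN3, above 2 of them in SD and above 3 in RD.

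For CTR86 the control gave 9.58 FPKM, the GD libraries 8.04, 8.05 and 5.58 FPKM, and the SD libraries 69.9, 59.9 and 74.8 FPKM. ControlSYN3 gave 8.86 FPKM, and the RD libraries gave 25.4, 36.7 and 36.6 FPKM. It showed the widest gap between SD and GD of the 8 genes, the SD mean being 9.44 times the GD mean. Against the control the log2 fold change of SD was 2.70 ± 0.25 (SE; limma adjusted p = 0.000911) and GD less SD was -3.08 ± 0.18 (7.44e-05). No pathway list was set beside it, as its role is not well defined.

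Set against genes of the same pathway or complex within a library, 7 of the 8 genes could be described. On the log2(FPKM + 1) scale, 2 of the 7 (PBN1 and PDI1) lay above the median of their list in the control, in every GD library and in ControlSYN3. In SD 5 did so in every library, with NFS1, PGK1 and RRP43 added, and in RD 4, without NFS1. RRP43 lay at -1.36 in the control, at -0.60 ± 0.22 in GD, at 2.23 ± 0.05 in SD and 0.66 ± 0.26 in RD (SD, n = 3 each). CDC39 went from -3.12 in the control and -2.96 ± 0.21 in GD to -1.19 ± 0.01 in SD, and from -4.13 in ControlSYN3 to -0.52 ± 0.23 in RD (SD, n = 3 each). Each of the 7 was thus higher relative to its own list in every SD library than in the control or any GD library.

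Partners were also counted in SD against the control, where 10.4% of all genes were higher and 31.4% lower. Of 21 anchor synthesis genes 1 was higher and 12 were lower, and of 12 folding genes none was higher and 8 were lower. For iron-sulfur cluster assembly it was 2 and 2 of 12, for the cardiolipin pathway none and 3 of 8, for glycolysis 1 and 4 of 14, for the exosome none and 4 of 12, and for Ccr4-Not none and 3 of 8. Under median-of-ratios scaling, which called 18.7% of all genes higher and 17.5% lower, the counts higher and lower became 4 and 5 for anchor synthesis, 1 and 6 for folding and 4 and 2 for iron-sulfur cluster assembly. They became 3 and 3 for the cardiolipin pathway, 1 and 3 for glycolysis, 1 and 4 for the exosome and none and 1 for Ccr4-Not. All 8 genes described here were called higher under this scaling.

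**Figure D4:**
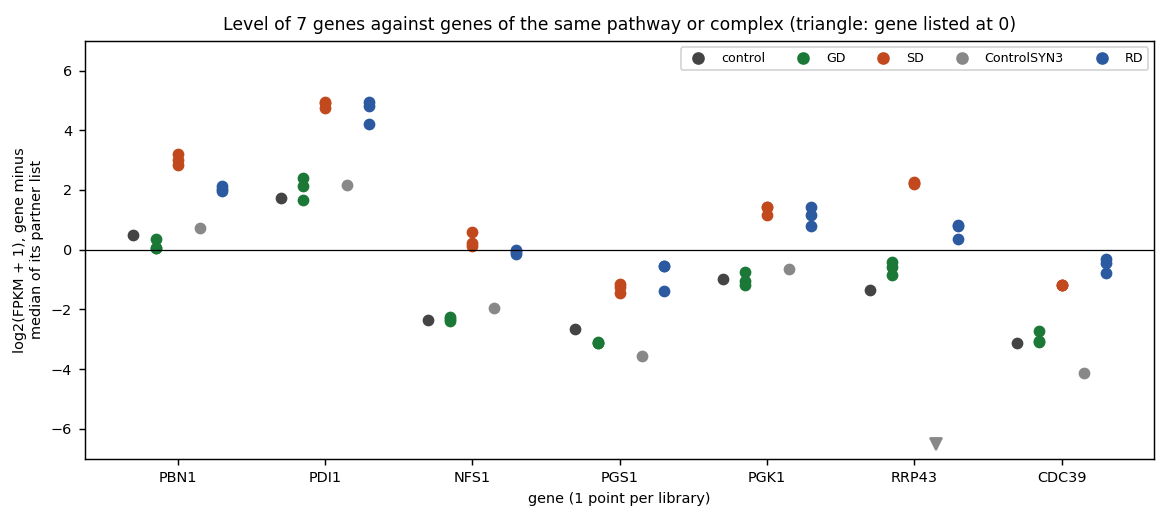
Log2(FPKM + 1) of each of 7 genes less the median of its partner list, 1 point per library, with the groups side by side in each gene. SD and RD points lie above the control, GD and ControlSYN3 points for every gene, and RRP43 in ControlSYN3 is drawn as a triangle because it is listed at 0.

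PGK1 and PDI1 were the highest of the 8 genes in every library, and the order of the others varied. In SD, PGK1 and PDI1 were followed by RRP43 (400.2 ± 11.6 FPKM) and PBN1 (373 ± 32.3 FPKM), whose ranges overlapped, then by NFS1, CTR86 (68.2 ± 7.57 FPKM), PGS1 (44.0 ± 2.89 FPKM) and CDC39 (30.3 ± 1.94 FPKM), without overlap (SD, n = 3 each). In GD, the ranges of RRP43 and PBN1 overlapped as well, though RRP43 was above PBN1 within each library. The ranges of PGS1, CDC39 and CTR86 in GD overlapped at 5.58 to 9.86 FPKM. RRP43 lay above NFS1 in the control and in every GD and SD library, and below NFS1 without overlap in RD (76.9 to 129 FPKM against 130 to 137 FPKM). In RD, the range of CDC39 (57.3 ± 8.93 FPKM) overlapped that of PGS1 (45.1 ± 10.3 FPKM), and PGS1 overlapped CTR86 (32.9 ± 6.504 FPKM; SD, n = 3 each). Within each RD library, however, the order from high to low was CDC39, PGS1 and CTR86. Ranked by FPKM within a library, the 8 genes had a median percentile of 30.8 in the control, between 35.1 and 40.8 in GD and between 85.9 and 88.9 in SD, and 21.5 in ControlSYN3 and 68.8 to 77.5 in RD.

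**Figure D5:**
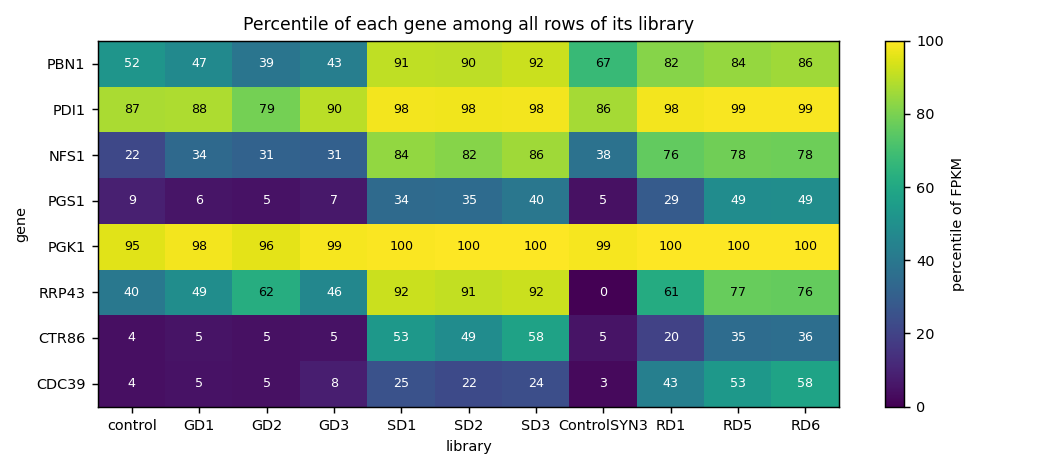
Percentile of FPKM of each gene (rows) among all rows of each library (columns), rounded to whole numbers. NFS1 goes from 21.8 in the control to 81.9 to 85.8 in SD, CTR86 from 4.06 to 48.6 to 57.6, and PGK1 lies above 95 throughout.

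RD1 was lower than RD5 and RD6 for all 8 genes, but the share of all genes with this order was not counted. The mean of RD5 and RD6 was 2.32 times RD1 for PGK1, 1.85 times for PDI1, 1.64 times for RRP43 and 1.54 times for PGS1, but 1.04 times for NFS1 and 1.09 times for PBN1. This difference was not tested.

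Stress and stationary phase genes moved with the SD libraries as well. Of 9 with a row, 9 were called lower in GD than in SD (20.4% of all genes), and 7 were called higher in SD than in the control (10.4%). Their summed level was 6058 FPKM in the control, 1715 to 3639 FPKM in GD and 25013 to 35714 FPKM in SD, with none of the 9 at 0. The second table had 15774 FPKM in ControlSYN3, 16360 FPKM in RD1 and 7903 to 10611 FPKM in RD5 and RD6. The part of stress and stationary phase genes in the SD and RD results was not tested. Genes of alpha-type cells summed to 6341 to 11090 FPKM in GD, 2525 to 4826 FPKM in SD and 8769 FPKM in the control, and genes of a-type cells to 39.9 to 129 FPKM in GD, 112 to 145 FPKM in SD and 261 FPKM in the control. MF(ALPHA)1 alone gave 6593 FPKM in the control. Of the 4 alpha-type genes 3 were called higher in GD than in SD (20.4% of all genes), and STE3 was not called (limma adjusted p = 0.342). Of the 6 a-type genes 1 was called lower in GD than in SD (20.4% of all genes) and none higher.

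The 8 genes were alike in how they varied over the 11 libraries. With log2(FPKM + 1) centred on the mean of each table, the Pearson correlation between members ran from 0.688 (PBN1 and RRP43) to 0.993 (NFS1 and CTR86), as a description over libraries that share strains and tables. The value of 0 for RRP43 in ControlSYN3, a possible failed estimate, was kept here. All correlations of RRP43, also that with SPB1 below, rest in part on it. Among 5531 other genes averaging 10 FPKM or more in both tables, the most like the median profile of the 8 were SPB1 (0.973), a row with a short number that has no match in the reference (0.969), MSL5 (0.961), PWP2 (0.952) and CYC3 (0.94). SPB1 and PWP2 lie next to PBN1 and CTR86 on chromosome III. MSL5, a splicing factor gene of chromosome XII, followed the shape over a smaller range, at 56.5 to 60.9 FPKM in GD, 81.4 to 88.8 FPKM in SD, 69.0 FPKM in the control, 52.2 FPKM in ControlSYN3 and 65.2 to 69.8 FPKM in RD. CYC3, which attaches heme to cytochrome c, is on chromosome I and stood at 87.1 to 109 FPKM in GD and 193 to 221 FPKM in SD. For single members, the most similar gene was ISN1 for PBN1 (0.985), CYC3 for NFS1 (0.974), MSL5 for PGS1 (0.967) and CTR86 (0.963), ALD6 for PGK1 (0.891), and SPB1 for PDI1 (0.969), RRP43 (0.961) and CDC39 (0.977).

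The 5 ribosome assembly genes of chromosome III that are essential, KRR1, SPB1, RRP7, PWP2 and RSA4, covered a like range. Their SD means were 2.24 to 11.5 times their GD means, and those of the 8 genes were 2.30 to 9.44 times. All 5 were called lower in GD than in SD, where 20.4% of all genes were. Their median log2 fold change was -1.75 against -2.46 for the 8 genes, a difference that was not tested.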

How the data were processed

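FPKM values come from 2 tables that the authors deposited, per the file headers. As tools, RSEM, Bowtie2 and BWA stand in the submitters' processing notes beside the build R64, with no version or role. Neither the handling of reads from recoded copies nor strandedness was found in the sources used here. The labels' protocols mention Trizol and oligo-dT beads. Low values did not resolve into whole fragments (mean distance to a whole number 0.165 to 0.202 per library), so the depth is unknown and no counting intervals could be had.

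Gene numbers were looked up in R64, which held 5774 of 5936 and 5770 of 5931 rows. Limma 3.58.1 in R 4.3.3 was run on log2(FPKM + 1), which understates changes of low genes, with trend and robust empirical Bayes and one model per table. Genes needed a mean of 1 FPKM or more (5899 and 5895 did, all 8 members among them), and p-values had Benjamini-Hochberg adjustment at 0.05. Residual degrees of freedom were 4 and 2. The test was checked on simulated data in which each gene had the same spread in all libraries of a table. This could not check whether the lone wild-type libraries vary like the strains. Members, partner lists, motifs and alternatives were chosen with earlier results of these data known. Named partners are the 2 with the lowest p in GD against SD per list, plus 1 partner fixed per gene. GLK1 and HSP30 were listed but not analysed here.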

Additional observations from a re-analysis of the deposited data

Results flagged for a closer look

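PBN1, PGS1 and CTR86 each lay below the control in all 3 GD libraries and above it in all 3 SD libraries. Their log2 fold changes of GD against SD were -2.92, -2.28 and -3.08, given as a description, since the genes were picked for this placement. Every GD library lay below the control for 59.6% of all genes tested, and every SD library lay above it for 28.4%. The share of all genes that met both conditions was not counted. In GD against the control PGS1 was called lower, at -1.12 (limma adjusted p = 0.00708), and PBN1 and CTR86 were not called, at -0.69 and -0.38 (0.0527 and 0.268), beside a median of -0.44 over all genes. Under median-of-ratios scaling these values were -0.73 for PGS1, which was called, and -0.28 for PBN1 and -0.01 for CTR86, which were not. Both contrasts with the control share its single library.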

How the results depend on the processing

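Of the 8 genes, 8 were higher in SD than in the control under every alternative except without SD3 (7 to 8 over the libraries left out), and 7 or 8 were lower in GD than in SD, PGK1 being the exception where 7. In GD against the control, genes of the 8 called lower numbered 0 in a fit of only the 2 groups and 1 to 2 when a library was left out, and those called higher 0 to 1. With median-of-ratios scaling PDI1, NFS1 and CDC39, none of them called, turned to log2 fold changes of 0.05, 0.39 and 0.23 in GD against the control, and the calls over all genes became 550 higher and 530 lower (1080 in all, from 294 and 1601) in GD and 1103 higher and 1032 lower (from 616 and 1852) in SD, as this scaling moved the median of all genes to -0.03 and 0.00. Over all genes, calls in GD against the control numbered 233 with only the 2 groups, and 1176 to 2781 when a library was left out. Calls in GD against SD numbered 1263 to 3222 when a library was left out. In RD against ControlSYN3 they numbered 1 without trend and robust estimates and 0 to 3298 when a library was left out (0 to 8 of the 8 genes). With the mean in place of the median of the partner list, 1 gene and not 2 lay above its list in every GD library. GD and SD share replicate numbers, and nothing in the labels says that these pair the libraries. The deviations of same-numbered libraries from their group means correlated at -0.13, -0.18 and -0.17, and no library correlated best with its own number. Correlations this weak, from deviations within small groups, cannot decide whether the libraries were paired. With the replicate block, 7 of the 8 genes were called lower in GD than in SD, PGK1 being lost (log2 fold change -1.32, limma adjusted p = 0.0503), and 1963 genes in all. Other fits with a block were not possible because a lone wild-type library has no partner. The lone wild-type libraries could not be left out.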
